A study of Homo sapiens with 12 samples.

Results

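The genes described here build and run the DNA replication fork: 49 genes that load, activate and drive the replicative helicase, copy both strands, join the new fragments and supply nucleotides. They were chosen by symbol as known replication factors, at a time when earlier results of these data were known. All 49 were found among the 28278 genes of the count table. Bulk poly(A) RNA-seq was done on 2 cancer cell lines, labelled OVCAR3 (ovarian) and CCL218 (colorectal), that had been passaged in 96-well plates. HCQ-evolved cells had gone through 15 cycles of hydroxychloroquine (HCQ, an antimalarial that blocks lysosomal degradation and autophagy), each a 48 h exposure at 20 to 50 µM and a recovery in drug-free medium. They were then kept without drug for 7 days. Control cells of each line were passaged without HCQ on a paired plate. Wells were pooled by plate position, 31 to a pool, labelled L, M and R, which gave 4 groups of 3 pools and 12 libraries. Each group thus came from 1 plate, and its pools are parts of that plate, so p-values measure the spread between pools of a plate. HCQ-evolved pools were labelled passage 15 and control pools passage 19, so passage number and HCQ cannot be told apart.

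Replication starts in G1, when the origin recognition complex (ORC) with CDC6 and CDT1 loads the MCM2-7 ring onto DNA, a step called licensing. At the start of S phase the kinase CDC7 with DBF4, MCM10, CDC45 and the GINS complex turn that ring into the active helicase. Polymerase alpha with primase lays down primers, the RFC complex loads the PCNA clamp, and polymerases delta and epsilon extend the strands, while RPA covers single-stranded DNA. FEN1 and LIG1 finish lagging-strand fragments, TOP2A untangles the copied DNA, and RRM1, RRM2, TYMS and TK1 supply deoxynucleotides. Many of these genes are known targets of E2F transcription factors, which are active in late G1 and S phase, so their RNA is commonly read as a mark of proliferation.

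Libraries held 31147822 to 59965861 counts. The 49 genes took 0.26 to 0.529% of these counts, and the smallest count of any of them in any library was 203 (GINS4). Markers of both tissues were found in both lines. Of the 12 colorectal markers examined, 8 were at 1 CPM (read counts scaled to a common library size with TMM factors) or more in all 12 libraries, and so were 6 of the 10 ovarian markers. The ovarian markers EMX2, SOX17 and ESR1 were at or below 3 counts, the floor of detection, in all 12 libraries, those labelled OVCAR3 included. The 12 colorectal markers summed to 1022 to 1238 CPM in OVCAR3 control, 278 to 729 in OVCAR3 HCQ-evolved, 1302 to 1774 in CCL218 control and 1334 to 1396 in CCL218 HCQ-evolved pools. The 10 ovarian markers summed to 446 to 695, 720 to 898, 358 to 559 and 459 to 524 CPM in the same order. Colorectal sums were thus higher in CCL218 than in OVCAR3 in control and in HCQ-evolved pools, and ovarian sums lower in HCQ-evolved pools, while those of control pools overlapped. Line names are used below as labels only, and the part of this shift of markers in any result was not tested. The R pool of HCQ-evolved OVCAR3 stood apart from its L and M pools (CDX2 at 0.80 CPM, against 8.26 and 9.72 CPM), and results are given with and without it where it mattered.

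Promoters are described first, and those of RFC3, POLA2 and RRM2 are shown because RFC3 and RRM2 rose in OVCAR3 and RFC3 and POLA2 differed between the lines. RefSeq windows of GRCh38.p14 from 250 bases before to 50 bases after the start of the gene's canonical transcript were found for 43 of the 49 genes. The E2F site was searched on both strands as its 4 forms TTTCCCGC, TTTCGCGC, TTTGCCGC and TTTGGCGC. It was present in 18 of the 43 windows (41.9%), against 5.58% of the windows of all genes tested in OVCAR3 and 3.38% of all 27305 windows. CCAAT, the box bound by NF-Y, was present in 25 (58.1%, against 36.8 and 35.7%). TTTGAA, the CHR element of many G2/M genes, was present in 3 (6.98%, against 8.76 and 15.1%), those of DBF4, TOP2A and RRM1. Matches of different motifs overlapped in 1 place. The 250 bases before the start of RFC3 (chr13:33817899-33818148, plus strand) and POLA2 (chr11:65261712-65261961, plus strand) are shown with the E2F match in capitals, on the minus strand 55 bases before the start of RFC3 and on the plus strand 53 bases before that of POLA2. Those of RRM2 (chr2:10122489-10122738, plus strand), which had no E2F match, are shown with its 3 CCAAT boxes in capitals, which begin 123, 93 and 66 bases before the start. Start here means that of the canonical transcript, and the spans given below for these 3 genes begin further upstream.
RFC3: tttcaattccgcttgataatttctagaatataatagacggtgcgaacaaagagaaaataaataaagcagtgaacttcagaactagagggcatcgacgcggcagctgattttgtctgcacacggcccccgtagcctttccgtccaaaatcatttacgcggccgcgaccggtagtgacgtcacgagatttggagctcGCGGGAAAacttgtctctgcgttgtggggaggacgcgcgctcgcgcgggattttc
POLA2: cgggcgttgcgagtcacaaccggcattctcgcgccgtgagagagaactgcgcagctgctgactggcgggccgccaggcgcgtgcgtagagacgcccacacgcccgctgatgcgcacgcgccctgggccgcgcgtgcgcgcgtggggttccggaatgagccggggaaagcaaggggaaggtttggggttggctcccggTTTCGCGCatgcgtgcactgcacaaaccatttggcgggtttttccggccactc
RRM2: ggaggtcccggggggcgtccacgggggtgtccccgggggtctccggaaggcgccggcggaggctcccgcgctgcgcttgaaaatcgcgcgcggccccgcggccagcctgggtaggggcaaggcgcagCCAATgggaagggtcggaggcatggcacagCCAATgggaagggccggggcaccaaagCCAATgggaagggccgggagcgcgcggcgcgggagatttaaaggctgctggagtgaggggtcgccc
GINS1 had 1 E2F match, which began 5 bases after the start and is not shown. MCM6 had the most E2F matches (4). The 18 genes with a match had a median log2 fold change (HCQ-evolved over control) of 0.52 in OVCAR3 and -0.044 in CCL218, and the 25 without had 0.59 and 0.073. Between HCQ-evolved pools (CCL218 over OVCAR3) the medians were -0.24 with a match and -0.47 without. Only the 4 exact forms were searched, and a difference between the 2 sets was not tested.

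In OVCAR3, replication genes were higher after HCQ evolution. All 49 had a log2 fold change above 0, where 51.6% of the 12204 genes tested did, and their median was 0.58 against 0.016 for all genes. All 49 had passed the low-count filter (at least 1 CPM in at least 3 libraries). GINS1, RFC3 and RRM2 passed the test at an adjusted p under 0.05 (edgeR's quasi-likelihood F test, Benjamini-Hochberg adjustment over all genes tested), which 0.647% of all genes did in this direction. At an unadjusted p under 0.05, 30 of 49 were higher, against 8.38% of all genes. Every HCQ-evolved pool lay above every control pool for 26 of 49, against 13% of all genes. The 49 genes were measured in the same 6 libraries and are not independent of each other. In bulk RNA, a larger share of cells in S phase and more RNA per cell cannot be told apart.

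**Figure D1:**
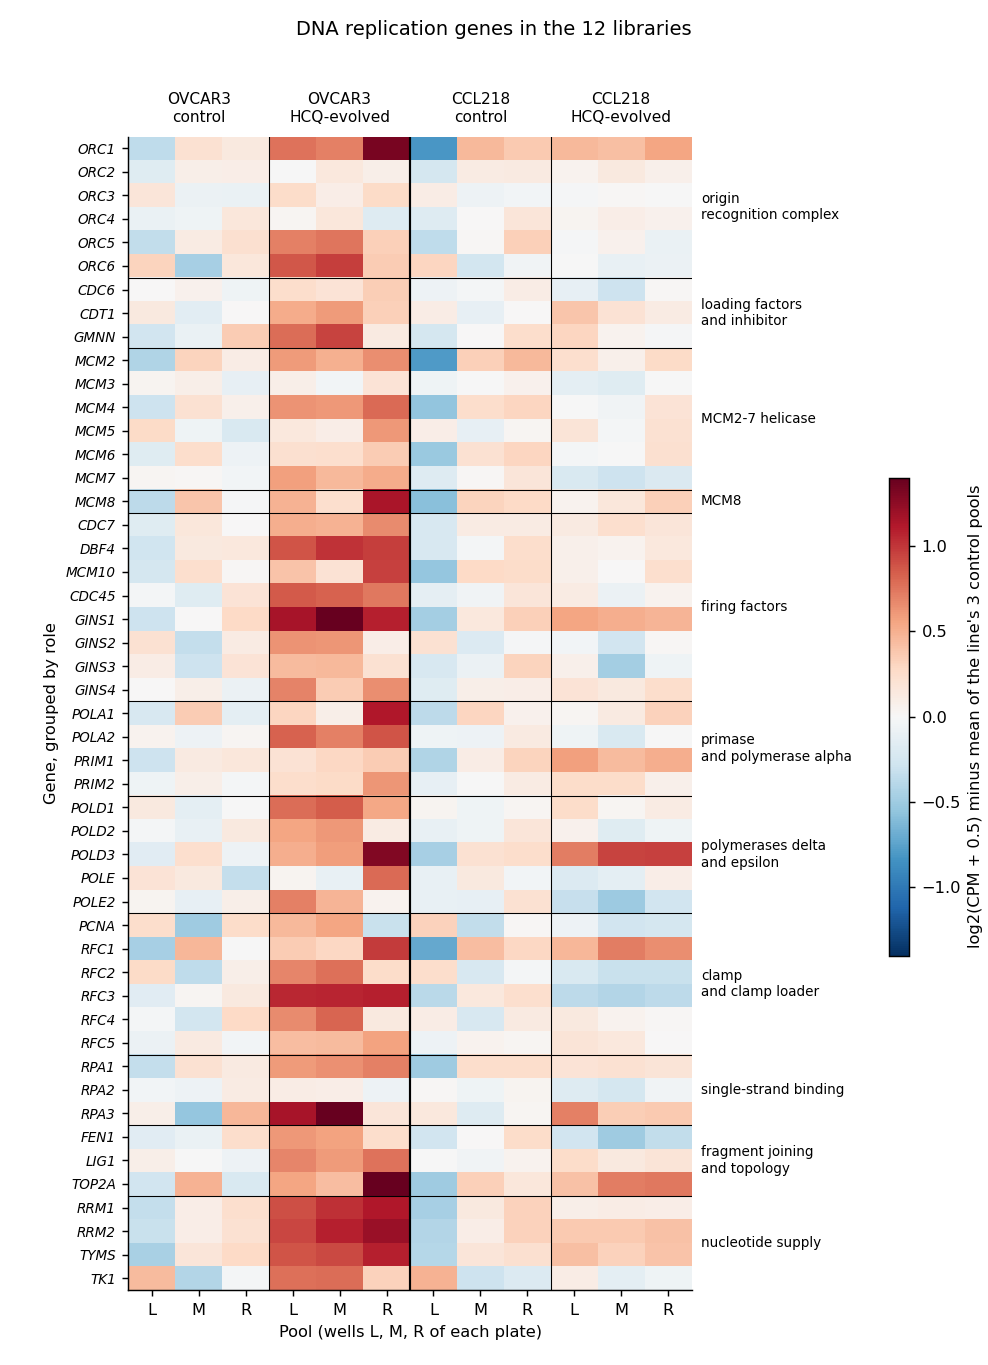
Heat map of the 49 genes (rows, grouped by role) in the 12 pools (columns), as log2(CPM + 0.5) minus the mean of the line's 3 control pools, where values past the ends of the colour scale share its darkest shade. The HCQ-evolved OVCAR3 pools are mostly red (46 to 48 genes above the control mean in each pool), while the HCQ-evolved CCL218 pools are mixed (29 to 33 genes above), and the L pool of CCL218 control is mostly blue (12 genes above).

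Calls in OVCAR3 depended on single pools over the whole table. None of the 49 passed when any single pool other than HCQ-evolved R was left out, where 0 to 9 genes of the whole table passed as higher. When HCQ-evolved R was left out 9 passed (DBF4, POLD1, RRM2, GINS1, POLA2, CDC45, RRM1, RFC3 and RPA3), against 1.92% of all genes. The direction was steadier, since 47 to 49 genes stayed above 0 with any 1 pool left out and the median stayed at or above 0.48. DESeq2's Wald test called 17 of the 49 (4.44% of all genes) and a fit of all 12 libraries 15 (4.42%), each including the same 3.

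In CCL218, the same genes showed little net shift. A log2 fold change above 0 was found for 30 of 49 (48.3% of 12241 genes), and the median was 0.06 against -0.017 for all genes. None passed the adjusted test, where 3.82% of all genes passed as higher and 2.64% as lower. At an unadjusted p under 0.05, 4 were higher (12.5% of all genes) and 2 lower (12.7%). Pools were apart upwards for 12 (18.6%) and downwards for 2 (17.3%). Same-position pools of CCL218 correlated at 0.54 (L), 0.26 (M) and 0.23 (R), and the M control pool correlated best with the HCQ-evolved R pool. Pairing by position was thus weak for M and R. With plate position as a block in the edgeR fit, POLD3 (log2 fold change 0.87, adjusted p = 0.00699) and TOP2A (0.62, adjusted p = 0.0292) rose, where 7.82% of all genes did. DESeq2 called POLD3 and RPA3, and 9.02% of all genes as higher. The result turned on the L pool of CCL218 control, where 12 of the 49 genes were above the control mean. Without that pool, POLD3, TOP2A and RPA3 passed as higher (13.6% of all genes did) and MCM7, RFC3 and FEN1 as lower (11.6%), so fewer of the 49 than of all genes passed, and 22 of 49 were above 0. The median was then -0.034, and over the leaving out of each pool in turn it ranged up to 0.14 (without the R pool of control, 34 of 49 above 0).

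**Figure D2:**
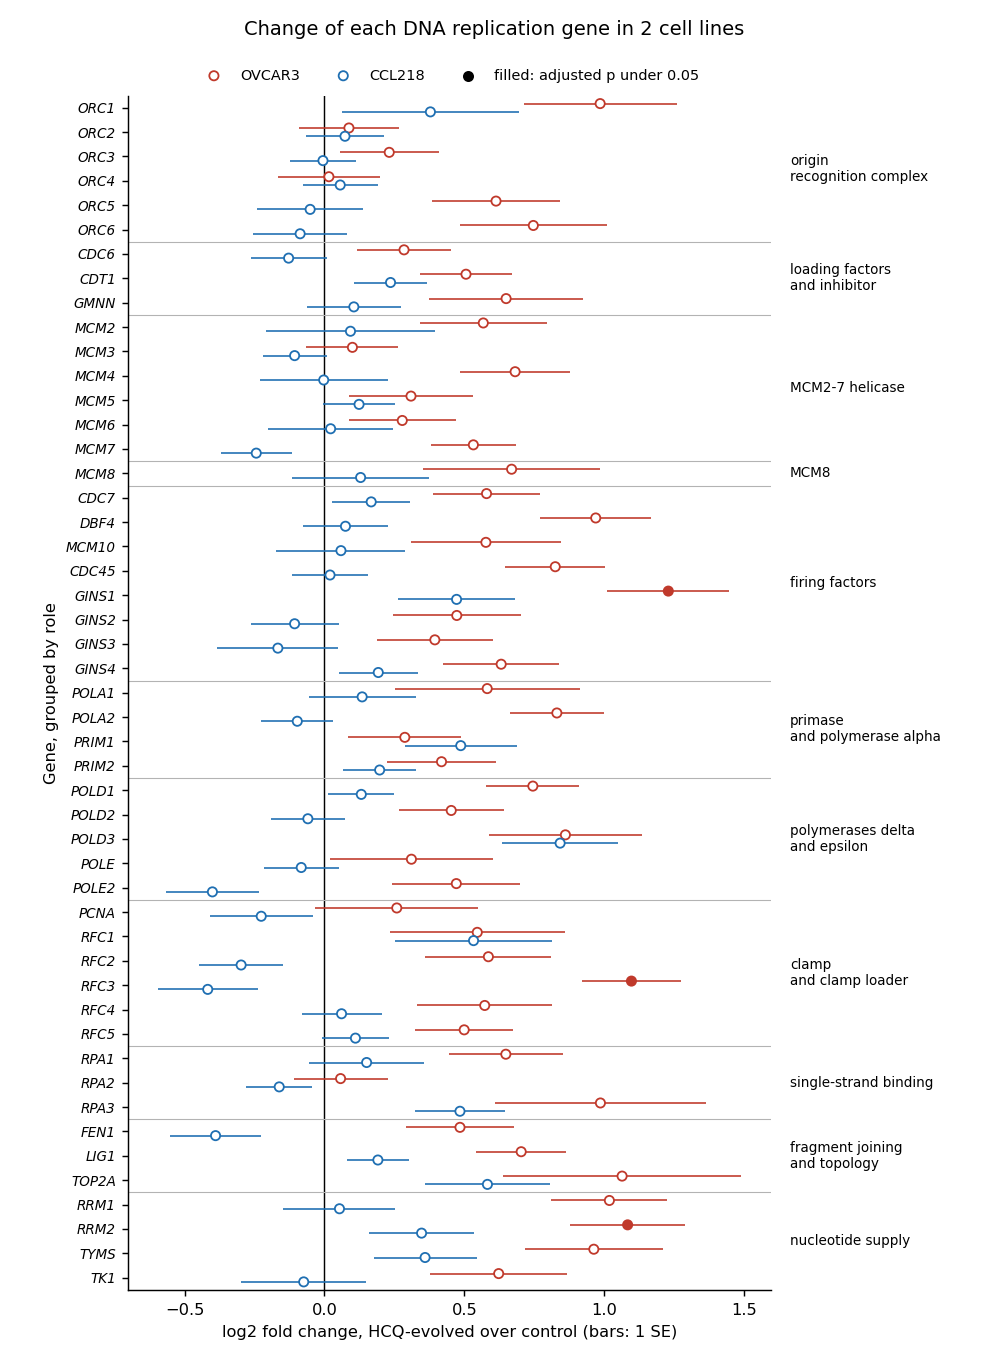
Log2 fold change of HCQ-evolved over control for each gene (rows, by role) in OVCAR3 (red) and CCL218 (blue), with bars of 1 SE and filled points for an adjusted p under 0.05. All red points lie right of 0 and 3 are filled, while blue points spread on both sides of 0 and none is filled.

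Of the licensing genes, ORC1, the ORC subunit that is degraded in S phase, had the largest ORC difference in OVCAR3. It was at 8.07, 12.2 and 11.5 CPM in the L, M and R control pools and at 17.9, 17.2 and 26.9 CPM in the HCQ-evolved ones. These pools did not overlap, but the log2 fold change of 0.99 (SE 0.27, adjusted p = 0.121) did not pass. In CCL218, ORC1 was at 8.01, 19.996 and 18.8 CPM in control and 19.95, 19.5 and 21.5 CPM in HCQ-evolved pools, which overlapped. ORC5 and ORC6 had log2 fold changes of 0.61 and 0.75 in OVCAR3, and ORC2, ORC3 and ORC4 had 0.087, 0.23 and 0.016. None of the 6 ORC genes passed in either line, and in CCL218 they ranged from -0.087 to 0.38. CDT1, the MCM loader, was at 101, 82.96 and 92.5 CPM in OVCAR3 control and 132, 139 and 116 CPM in HCQ-evolved pools, a log2 fold change of 0.51 (SE 0.17, adjusted p = 0.178). In CCL218 it was at 78.9, 67.9 and 73.6 CPM and 96.3, 84.5 and 79.5 CPM, 0.24 (SE 0.13, adjusted p = 0.301). HCQ-evolved CDT1 pools lay above control pools in both lines, and neither difference passed. CDC6 and GMNN, which encodes the CDT1 inhibitor geminin, had 0.28 and 0.65 in OVCAR3 and -0.13 and 0.11 in CCL218.

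The MCM2-7 ring has 6 subunits. In OVCAR3 their log2 fold changes were 0.68 (MCM4), 0.57 (MCM2), 0.53 (MCM7), 0.31 (MCM5), 0.28 (MCM6) and 0.10 (MCM3), and none passed. MCM7 had the smallest p of the 6, with 229, 229 and 219 CPM in control pools and 336, 309 and 324 CPM in HCQ-evolved pools (adjusted p = 0.13). Its direction in CCL218 was opposite, with 252, 289 and 320.3 CPM in control and 246, 234 and 249.02 CPM in HCQ-evolved pools and a log2 fold change of -0.24 (SE 0.13, adjusted p = 0.279). The groups did not overlap in either line. The other 5 subunits lay between -0.11 and 0.12 in CCL218. MCM8, which acts in recombination rather than in licensing, was at 19.7, 33.5 and 25.2 CPM in OVCAR3 control and 36.1, 30.1 and 56.9 CPM in HCQ-evolved pools, 0.67 (SE 0.32, adjusted p = 0.357). Its highest value was in the R pool, and the groups overlapped. In CCL218 it was at 25.6, 47.9 and 46.8 CPM and 39.9, 43.3 and 48.7 CPM, 0.13 (SE 0.24, adjusted p = 0.764).

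Among the 8 factors that fire origins, GINS1, a subunit of the active helicase (chromosome 20, 25391008 to 25452700, plus strand, GENCODE 44 on hg38), rose in OVCAR3. It was at 22.2, 27.2 and 33.2 CPM in control pools and at 60.9, 72.6 and 58.4 CPM in HCQ-evolved pools, 2.34-fold higher (log2 fold change 1.23 (SE 0.22, adjusted p = 0.04)), and the groups did not overlap. CCL218 pools were at 24.1, 37.3 and 42.6 CPM and 49.6, 48.01 and 47.04 CPM, also without overlap, with a log2 fold change of 0.47 (SE 0.21, adjusted p = 0.214). Its partners GINS2, GINS3 and GINS4 had smaller values in OVCAR3, 0.47, 0.39 and 0.63. DBF4, the activating subunit of the CDC7 kinase, was at 25.5, 34.2 and 34.4 CPM in OVCAR3 control and 57.8, 63.4 and 61.4 CPM in HCQ-evolved pools, 0.97 (SE 0.20, adjusted p = 0.0569). CDC45, the helicase subunit that joins GINS on the MCM ring, was at 34.5, 31.2 and 40.1 CPM and 64.2, 62.5 and 58.7 CPM, 0.82 (SE 0.18, adjusted p = 0.0655). Both sets of OVCAR3 pools were apart, and both genes just missed the threshold. In CCL218, DBF4 was at 29.05, 33.3 and 40.3 CPM and 35.6, 35.1 and 37.7 CPM and CDC45 at 38.8, 40.7 and 47.7 CPM and 45.7, 39.9 and 43.7 CPM, with overlap. CDC7 and MCM10 had log2 fold changes of 0.58 and 0.58 in OVCAR3 and 0.17 and 0.059 in CCL218.

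Of the primer-making genes, POLA2 (chromosome 11, 65261913 to 65305959, plus strand) encodes the accessory subunit of polymerase alpha. Its level was 34.4, 31.7 and 33.8 CPM in OVCAR3 control and 59.2, 54.6 and 61.5 CPM in HCQ-evolved pools. Its log2 fold change of 0.83 (SE 0.17, adjusted p = 0.0541) was just short of the threshold. In CCL218 it was at 32.8, 32.6 and 37.3 CPM and 32.8, 29.5 and 33.9 CPM, -0.10 (SE 0.13, adjusted p = 0.661). The HCQ-evolved OVCAR3 pools lay above the 9 other pools. POLA1, the catalytic subunit, had 0.58 in OVCAR3, where its R pool stood at 37.9 CPM. PRIM1, the catalytic primase subunit, was at 13.96, 20.4 and 23.7 CPM in CCL218 control and 28.5, 25.9 and 27.2 CPM in HCQ-evolved pools, 0.49 (SE 0.20, adjusted p = 0.185), and at 19.2, 25.8 and 26.5 CPM and 27.2, 28.9 and 30.2 CPM in OVCAR3, 0.29 (SE 0.20, adjusted p = 0.537). With each line fitted alone, PRIM1 and ORC4 were the 2 genes with a larger log2 fold change in CCL218 than in OVCAR3. In the fit of all 12 libraries, ORC2, POLD3 and RFC1 were slightly larger in CCL218 as well. PRIM2 had 0.42 and 0.20.

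Polymerases delta and epsilon follow. POLD1, the catalytic subunit of polymerase delta, was at 117, 96.8 and 106 CPM in OVCAR3 control and 183, 191 and 155 CPM in HCQ-evolved pools, 0.74 (SE 0.17, adjusted p = 0.0697), and at 124, 116 and 124 CPM and 145, 124 and 131 CPM in CCL218, 0.13 (SE 0.12, adjusted p = 0.509). POLD1 pools were apart in OVCAR3 and overlapped in CCL218. POLD3, an accessory subunit of polymerase delta, had nearly the same log2 fold change in both lines. In CCL218 it was at 36.3, 58.6 and 59.98 CPM in control and 83.1, 97.3 and 98.01 CPM in HCQ-evolved pools, without overlap, 0.84 (SE 0.21, adjusted p = 0.0591). In OVCAR3 it was at 31.1, 41.04 and 32.98 CPM and 49.7, 52.6 and 86.01 CPM, 0.86 (SE 0.27, adjusted p = 0.166), also without overlap. POLE2, the accessory subunit of polymerase epsilon, was at 7.94, 7.10 and 8.20 CPM and 12.9, 10.98 and 8.0 CPM in OVCAR3, 0.47 (SE 0.23, adjusted p = 0.365). Its R pool lay within the controls. In CCL218 POLE2 was at 7.96, 7.90 and 10.1 CPM and 6.77, 5.88 and 7.04 CPM, -0.40 (SE 0.17, adjusted p = 0.188), with every HCQ-evolved pool below every control pool. POLE and POLD2 had 0.31 and 0.45 in OVCAR3 and -0.083 and -0.059 in CCL218.

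RFC3, a small subunit of the clamp loader (chromosome 13, 33818069 to 33966558, plus strand), had the smallest p of the 49 genes in OVCAR3. It rose from 22.6, 25.7 and 27.7 CPM in control pools to 53.2, 53.5 and 54.1 CPM in HCQ-evolved pools, 2.14-fold (log2 fold change 1.10 (SE 0.18, adjusted p = 0.0309)). In CCL218 it was at 17.6, 25.6 and 27.1 CPM in control and 17.8, 17.3 and 17.8 CPM in HCQ-evolved pools, -0.42 (SE 0.18, adjusted p = 0.202), and the L control pool overlapped the HCQ-evolved ones. RFC3 therefore had opposite signs in the lines. RFC2, another small subunit, was at 69.2, 44.5 and 60.6 CPM and 91.9, 97.8 and 68.6 CPM in OVCAR3, 0.59 (SE 0.23, adjusted p = 0.253), and at 64.4, 46.7 and 53.5 CPM and 46.9, 43.6 and 43.7 CPM in CCL218, -0.30 (SE 0.15, adjusted p = 0.265), with overlap in both lines. RFC1, RFC4 and RFC5 had 0.55, 0.57 and 0.50 in OVCAR3 and 0.53, 0.061 and 0.11 in CCL218. PCNA, the clamp itself, had 0.26 and -0.23. Its pools in OVCAR3 overlapped, at 148, 88.5 and 149.8 CPM in control and 172, 185 and 101 CPM in HCQ-evolved pools.

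**Figure D3:**
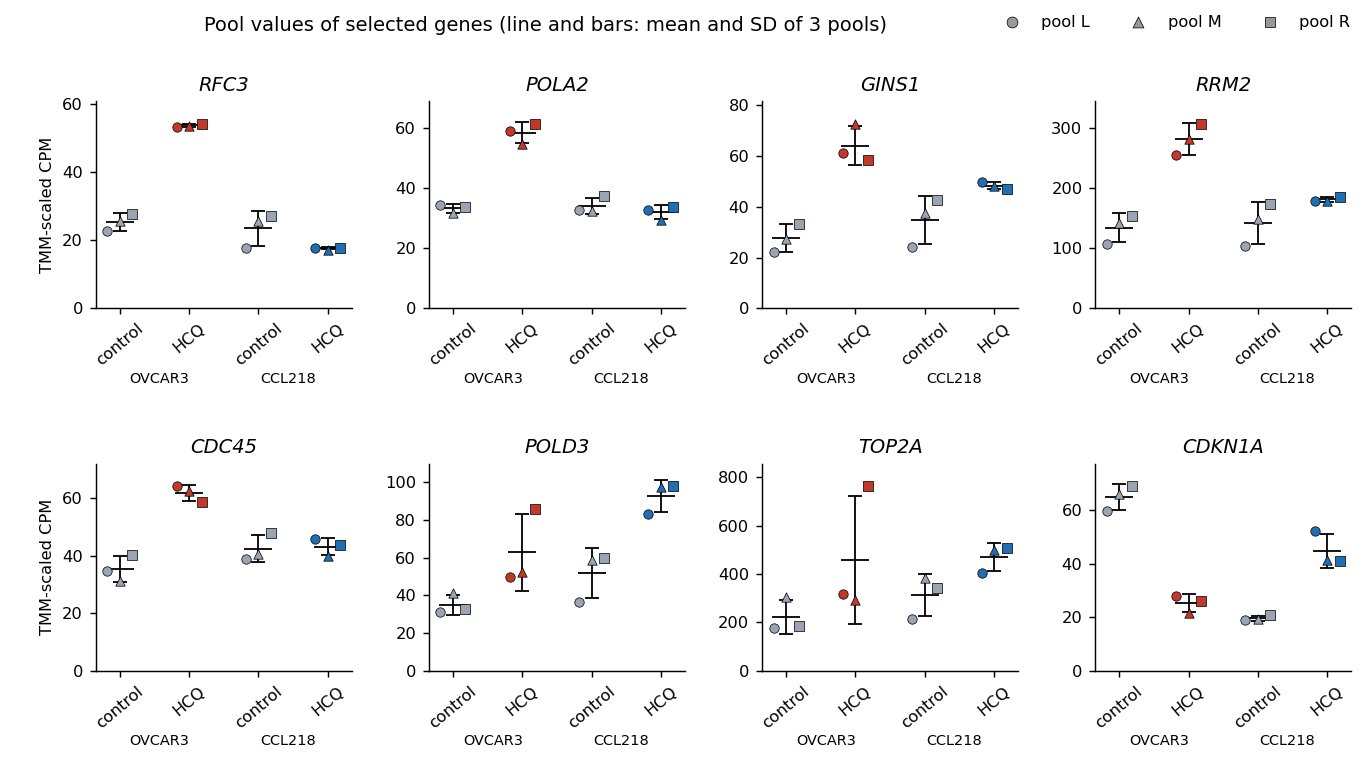
TMM-scaled CPM of 8 genes in each pool (circle L, triangle M, square R), with the mean and SD of the 3 pools of each group. For RFC3, POLA2, RRM2 and CDC45 the HCQ-evolved OVCAR3 pools lie above all other pools, POLD3 is highest in HCQ-evolved CCL218, the R pool sets the high OVCAR3 mean of TOP2A, and CDKN1A falls in OVCAR3 and rises in CCL218.

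RPA, which coats single-stranded DNA, has 3 subunits. RPA1 was at 70.7, 103 and 97.2 CPM in OVCAR3 control and 135, 139 and 146 CPM in HCQ-evolved pools, 0.65 (SE 0.20, adjusted p = 0.162), and at 75.96, 127 and 128 CPM and 122, 124 and 122 CPM in CCL218, 0.15 (SE 0.21, adjusted p = 0.669). RPA1 pools were apart in OVCAR3 and overlapped in CCL218. RPA3 was at 17.4, 11.1 and 22.9 CPM and 37.1, 45.4 and 18.6 CPM in OVCAR3, 0.99 (SE 0.38, adjusted p = 0.251), where the low R pool overlapped the controls. In CCL218 RPA3 was at 17.2, 13.6 and 15.8 CPM and 25.6, 19.7 and 20.1 CPM, without overlap, 0.48 (SE 0.16, adjusted p = 0.122). RPA2 had 0.058 and -0.16.

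Of the genes that finish and untangle the copies, LIG1, the ligase of lagging-strand fragments, was at 91.1, 85.6 and 82.1 CPM in OVCAR3 control and 139, 130.2 and 147 CPM in HCQ-evolved pools, 0.70 (SE 0.16, adjusted p = 0.0742), and at 108, 105 and 112 CPM and 129.8, 119 and 123 CPM in CCL218, 0.19 (SE 0.11, adjusted p = 0.318). HCQ-evolved pools lay above control pools in both lines. FEN1, the flap nuclease, was at 107, 111 and 142 CPM and 181, 176 and 142 CPM in OVCAR3, 0.48 (SE 0.19, adjusted p = 0.267), and at 95.6, 116 and 138 CPM and 96.0, 81.4 and 90.8 CPM in CCL218, -0.39 (SE 0.16, adjusted p = 0.191). FEN1 thus had opposite signs in the lines, and its groups overlapped in both. TOP2A, topoisomerase II alpha, was at 179, 304 and 186 CPM and 317, 292 and 765 CPM in OVCAR3, 1.06 (SE 0.43, adjusted p = 0.271), where the R pool was far above the others. In CCL218 TOP2A was at 215, 384 and 341 CPM and 405, 499 and 507 CPM, without overlap, 0.58 (SE 0.22, adjusted p = 0.164).

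The nucleotide supply genes had the highest median log2 fold change of the 11 roles in OVCAR3, 0.99. RRM2, the regulated subunit of ribonucleotide reductase (chromosome 2, 10120698 to 10211725, plus strand), rose from 107, 142 and 154 CPM in OVCAR3 control to 255, 282 and 307 CPM in HCQ-evolved pools, 2.12-fold (log2 fold change 1.08 (SE 0.20, adjusted p = 0.0484)). CCL218 had 104, 148 and 173 CPM and 179, 179 and 185 CPM, 0.35 (SE 0.19, adjusted p = 0.292). Its groups did not overlap in either line. RRM1, the large subunit, was at 120.2, 162 and 179 CPM and 284, 309.6 and 331 CPM in OVCAR3, 1.02 (SE 0.21, adjusted p = 0.0569), and at 109, 165 and 188 CPM and 159, 161 and 160.1 CPM in CCL218, 0.054 (SE 0.20, adjusted p = 0.885). The 2 subunits thus had alike values in OVCAR3, and RRM1 was near 0 in CCL218. TYMS, thymidylate synthase, was at 16.7, 26.1 and 28.1 CPM and 42.8, 44.3 and 49.6 CPM in OVCAR3, 0.96 (SE 0.25, adjusted p = 0.101), and at 18.5, 27.6 and 28.9 CPM and 33.1, 30.8 and 32.6 CPM in CCL218, 0.36 (SE 0.18, adjusted p = 0.269). TYMS pools were apart in both lines. TK1, thymidine kinase, was at 185, 103 and 134 CPM and 234, 236 and 170.4 CPM in OVCAR3, 0.62 (SE 0.24, adjusted p = 0.262), and at 165, 95.8 and 103 CPM and 127, 107 and 113 CPM in CCL218, -0.074 (SE 0.22, adjusted p = 0.853). TK1 pools overlapped in both lines, and its L control pool was the highest control pool in each.

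Whether a change differed between the lines was tested as an interaction in 1 fit of all 12 libraries (12613 genes). For 44 of the 49 genes the change was lower in CCL218 than in OVCAR3, with a median difference of -0.49 (log2), and for 47 under RLE scaling, without the low-count filter and by DESeq2. RFC3 (-1.50 (SE 0.23, adjusted p = 0.0121)) and POLA2 (-0.91 (SE 0.18, adjusted p = 0.0397)) passed, where 0.182% of all genes passed in this direction. At an unadjusted p under 0.05 there were 16 of 49, against 3.7% of all genes. The RFC3 difference passed in 16 of 18 alternative settings and that of POLA2 in 6. With plate position as a block, neither passed (adjusted p = 0.0919 for RFC3 and 0.2204 for POLA2), and none passed without the M pool of HCQ-evolved CCL218 (RFC3, adjusted p = 0.0555). Without the L pool of CCL218 control, MCM7 and RRM1 passed as well (0.159% of all genes did in this direction). For the other genes, a difference between the lines was not shown. For POLD3 and RFC1, the difference was 0.0041 (SE 0.35, adjusted p = 0.999) and 0.0056 (SE 0.44, adjusted p = 0.999).

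The controls of the lines were close in these genes. Control CCL218 was above control OVCAR3 for 35 of 49, with a median log2 ratio of 0.17. Only GINS4, a GINS subunit, passed, where 1.35% of all genes passed as higher. It was at 6.03, 6.37 and 5.62 CPM in OVCAR3 control and 8.58, 10.4 and 10.4 CPM in CCL218 control, a log2 ratio of 0.70 (SE 0.15, adjusted p = 0.0269), and these pools did not overlap. None of the 49 passed in this comparison when 1 pool other than L of CCL218 control was left out, and 4 passed without that pool (2.23% of all genes as higher).

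The HCQ-evolved pools of the lines differed more. CCL218 was below OVCAR3 for 38 of 49, with a median log2 ratio of -0.28, and 11 passed as lower, against 6.4% of all genes. RFC3 had the largest difference, -1.61 (SE 0.17, adjusted p = 0.000147), a ratio of 0.328. RRM1 (-0.95, adjusted p = 0.0103), RFC2 (-0.94, 0.00916), FEN1 (-0.90, 0.00609), TK1 (-0.89, 0.0423), POLA2 (-0.87, 0.000992) and DBF4 (-0.75, 0.0099) followed. POLE2 (-0.69, 0.0356), CDT1 (-0.58, 0.0173), CDC45 (-0.52, 0.0325) and MCM7 (-0.41, 0.0453) completed the list. No gene passed as higher in CCL218. Without the R pool of HCQ-evolved OVCAR3, 20 passed as lower and 1 as higher (14.8 and 16.6% of all genes). Leaving out any other single pool of this comparison gave 5 to 7, all lower, where 342 to 467 genes of the whole table passed as lower. RFC3, POLA2, RFC2, FEN1 and RRM1 passed under all 11 alternative settings. DBF4 passed under 10 of them, CDT1 and TK1 under 6, CDC45 under 5, POLE2 under 4 and MCM7 under 3. This comparison and those above share pools, so their values are not independent of each other.

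Genes that lie on the same chromosome were compared next, since the lines differed by chromosome. The chromosomes were picked after their values were seen. In the comparison of HCQ-evolved pools, the other genes of chromosomes 13, 11 and 7 had the lowest medians of the 23 chromosomes examined (-0.47, -0.27 and -0.21). Of the 49 genes, 11 lie on these chromosomes: RFC3 on 13, POLA2, POLD3, FEN1 and RRM1 on 11, and ORC5, MCM7, DBF4, POLD2, RFC2 and RPA3 on 7. They held 7 of the 11 genes that passed, and their median was -0.75, against -0.15 for the 38 on other chromosomes. In OVCAR3, 48 of 49 genes lay above the median of the other genes on their chromosome, by a median of 0.54, and in CCL218 33 did, by 0.058. Between HCQ-evolved pools 9 of 49 did, with a median distance of -0.26, against a median of -0.28 before this subtraction. The 38 genes on other chromosomes weigh most in these 2 medians. On chromosomes 13, 11 and 7 the subtraction took off -0.47, -0.27 and -0.21, so RFC3 went from -1.61 to -1.13 and MCM7 from -0.41 to -0.20. The part of the chromosome in these differences was not tested.

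The region around RFC3 was read in the same way. Within 5 Mb on either side, 23 other genes were tested in OVCAR3 and 20 in CCL218. Their median log2 fold change was 0.41 in OVCAR3 (16 above 0, and 2 further from 0 than RFC3) and -0.50 in CCL218 (18 below 0, and 13 further from 0 than RFC3). The difference between the lines had a median of -0.93 over the 23 neighbours, with 22 below 0 and 2 further from 0 than RFC3. RFC3 thus shared its direction in each line with most of its neighbours, and the part of the surrounding region in its change was not tested.

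**Figure D4:**
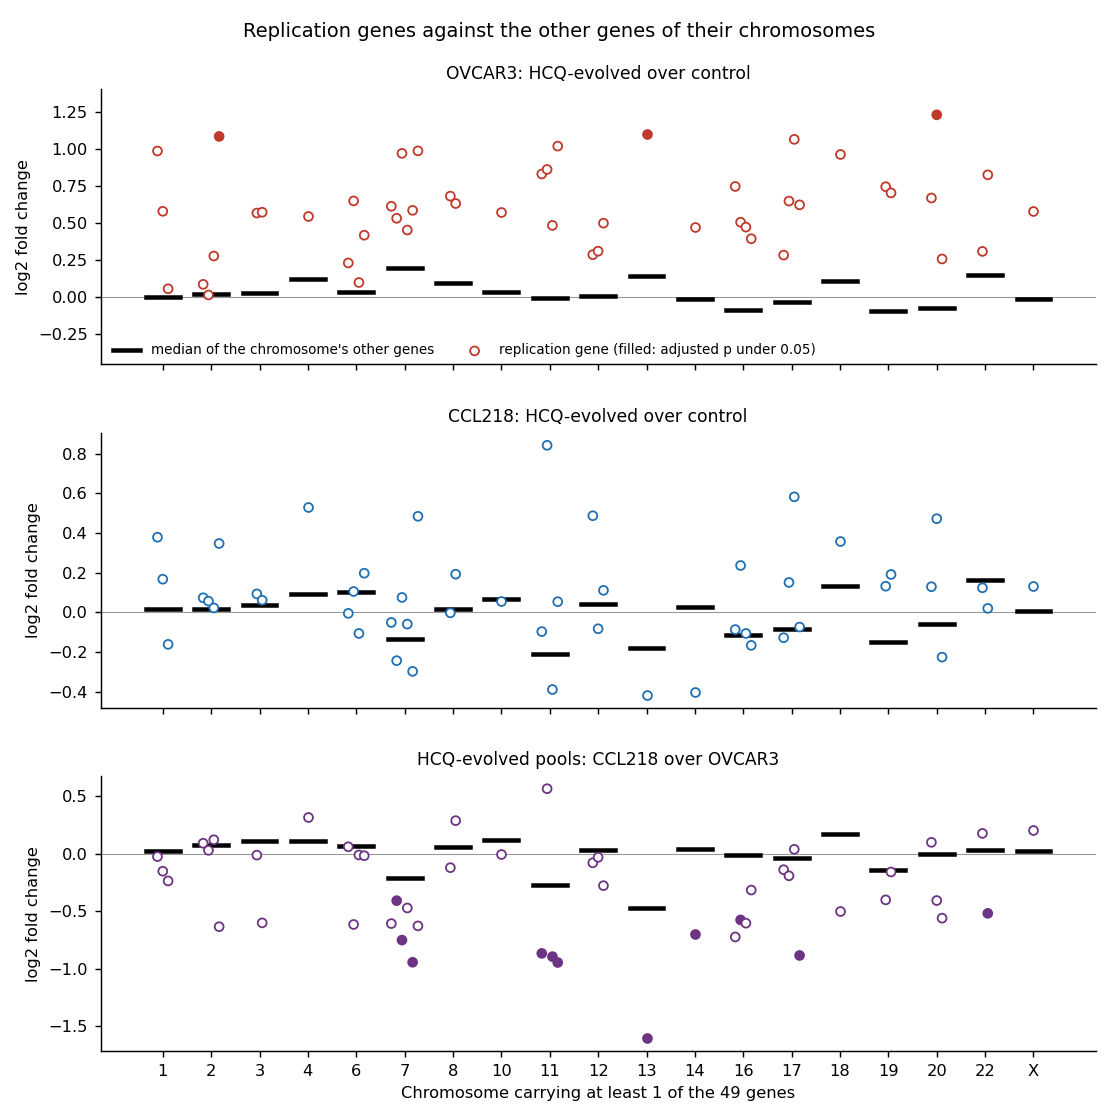
Log2 fold change of each of the 49 genes (points, filled for an adjusted p under 0.05) by chromosome, beside the median of the other genes on that chromosome (black bars), for HCQ-evolved over control in each line and for CCL218 over OVCAR3 in HCQ-evolved pools. In OVCAR3 48 of 49 points lie above their bar, and in the lowest panel the bars and points of chromosomes 7, 11 and 13 lie low.

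Spread between pools followed transcript length. Within HCQ-evolved OVCAR3, the deviation of the R pool from the L and M pools rose with the length of the 49 transcripts (Spearman's rho 0.67, n = 49 genes, which share the library), and that of L and M fell (rho -0.66 and -0.65). Each deviation is taken from the other pools of the group, so the fall in L and M is not separate from the rise in R. Over 12211 genes the values were alike (0.64, -0.58 and -0.61). TOP2A, with a transcript of 5.70 kb, was at 765 CPM in the R pool and 317 and 292 in L and M, while RPA3 (2.02 kb) was at 18.6 CPM against 37.1 and 45.4 CPM. The L pool of CCL218 control had rho -0.47 and that of HCQ-evolved CCL218 -0.74. The log2 fold changes of the 49 genes had a rho with length of 0.069 in OVCAR3, 0.31 in CCL218, 0.67 between controls and 0.61 between HCQ-evolved pools. After each library was corrected for a trend with length and GC content, 18 genes passed as higher in OVCAR3 (4.62% of all genes did) and 47 of 49 were above 0. In CCL218, CDT1, POLD3, TOP2A and RPA3 then passed, a share below the 10.3% of all genes that passed as higher.

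**Figure D5:**
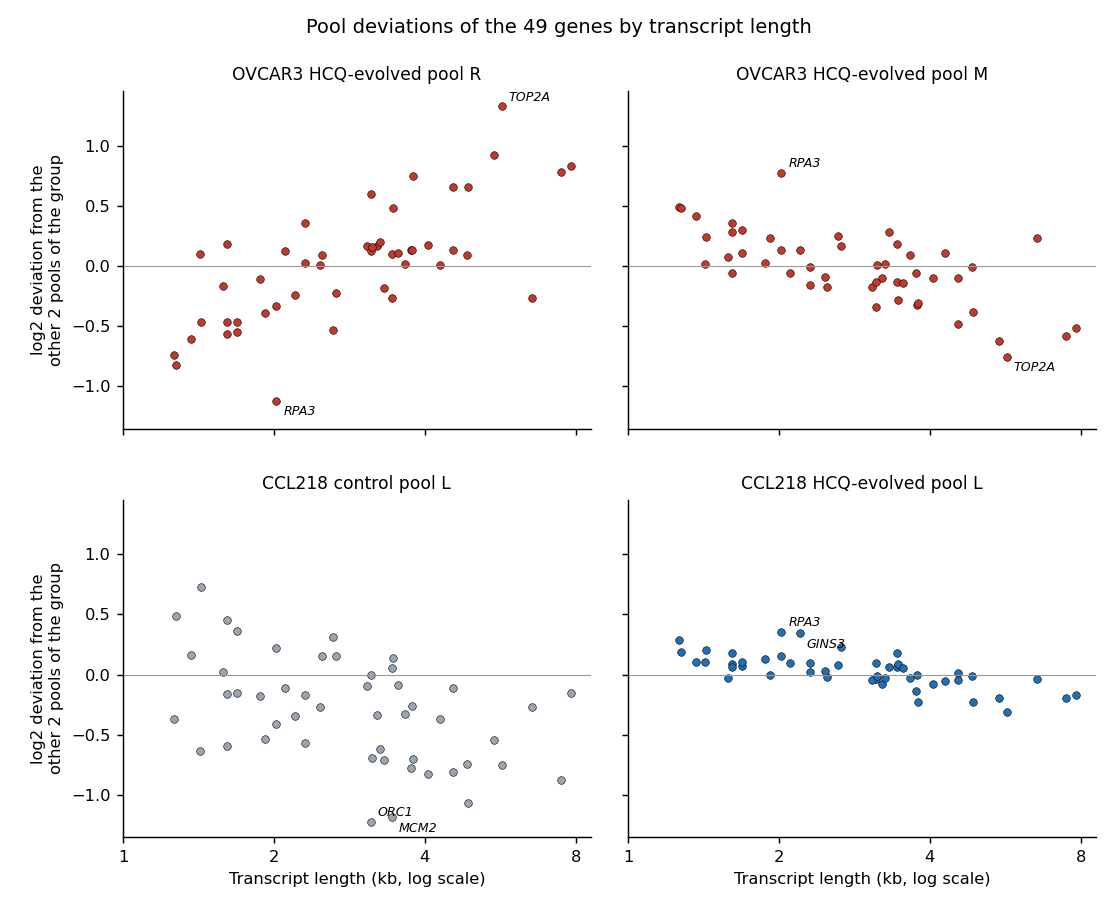
Log2 deviation of 4 pools from the other 2 pools of their group for each of the 49 genes, against transcript length (kb, log scale), with the 2 genes furthest from 0 named. Long transcripts lie high in the R pool of HCQ-evolved OVCAR3 (rho 0.67) and low in its M pool and in the L pools of CCL218. The R and M panels of OVCAR3 are not independent, since each deviation is taken from the other pools of the group.

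Further replication genes were taken from a list of 47, of which 46 were tested. In OVCAR3, 40 of 46 were above 0 (51.6% of all genes), with a median of 0.40. None passed the adjusted test of edgeR, while 18 were higher at an unadjusted p under 0.05 (8.38% of all genes). DUT, which keeps uracil out of DNA, had the smallest p, with 71.3, 74.9 and 109 CPM in control and 156, 173 and 128 CPM in HCQ-evolved pools, 0.85 (SE 0.23, adjusted p = 0.112). In CCL218, 19 of 46 were above 0 (48.3% of all genes), with a median of -0.07. LRWD1, an ORC-associated protein, fell, where 2.64% of all genes passed as lower. It was at 31.3, 26.7 and 30.6 CPM in control and 21.5, 18.6 and 19.2 CPM in HCQ-evolved pools, -0.58 (SE 0.13, adjusted p = 0.0462), and passed with only 1 of the 6 pools left out (L of control).

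Among 26 tested genes that control the G1/S transition, 20 were above 0 in OVCAR3 (51.6% of all genes), with a median of 0.33. As lower in OVCAR3, 2 passed, against 148 of all 12204 genes. CDKN1A, which encodes the CDK inhibitor p21, fell in OVCAR3 from 59.9, 66.2 and 69.2 CPM in control to 28.02, 21.5 and 26.2 CPM in HCQ-evolved pools, -1.35 (SE 0.19, adjusted p = 0.0218). In CCL218 it rose from 19.02, 19.2 and 20.7 CPM to 52.3, 41.5 and 40.9 CPM, 1.19 (SE 0.15, adjusted p = 0.00603). The change differed between the lines by 2.56 (SE 0.22, adjusted p = 0.000539). CCND1, cyclin D1, also fell in OVCAR3, from 179.9, 208 and 151 CPM to 89.97, 88.01 and 73.3 CPM, -1.08 (SE 0.19, adjusted p = 0.038), and was at 201, 244 and 231 CPM and 239, 253 and 273 CPM in CCL218, 0.18 (SE 0.13, adjusted p = 0.411). In OVCAR3 neither CDKN1A nor CCND1 passed when any 1 pool other than HCQ-evolved R was left out, while CDKN1A in CCL218 passed with each pool left out. E2F1, the activator of S-phase genes, had 0.34 in OVCAR3 and -0.0074 in CCL218, and neither passed.

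Of 12 genes of G2 and mitosis, all 12 were above 0 in OVCAR3 (51.6% of all genes), with a median of 0.94. CDK1, AURKA, CCNB1, CCNB2 and CDC20 rose, against 0.647% of all genes. None of these 5 passed when any 1 pool other than HCQ-evolved R was left out. CDK1, the mitotic kinase, rose from 69.3, 65.03 and 91.7 CPM to 171, 217 and 161 CPM, 1.29 (SE 0.21, adjusted p = 0.0318). In CCL218, 11 of 12 were above 0 (48.3% of all genes), with a median of 0.39. CDK1 rose there from 77.7, 70.9 and 78.5 CPM to 123, 119 and 109.6 CPM, 0.63 (SE 0.12, adjusted p = 0.0251), where 3.82% of all genes passed as higher. CDK1 passed in CCL218 with only 1 of the 6 pools left out (L of control). The G2/M median thus exceeded that of the 49 replication genes in both lines, which was not tested.

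Levels were compared between genes per kb of transcript (GENCODE 44 canonical transcripts), as CPM per kb with the SD of 3 OVCAR3 control pools. PCNA (101 ± 27.5), TK1 (98.3 ± 29.1), MCM7 (91.6 ± 2.31) and POLD2 (83.2 ± 7.42) were the highest and overlapped in their SD. The MCM2-7 subunits, which sit in 1 ring in equal number, ranged from 17.4 ± 2.71 (MCM6) to 91.6 ± 2.31 (MCM7), with MCM4, MCM3 and MCM2 at 43.9 ± 7.59, 42.8 ± 3.02 and 41.7 ± 10.3 and not apart beyond their SD. ORC1 (3.39 ± 0.706) was the lowest of the ORC genes and ORC6 (14.3 ± 3.85) the highest. GINS4 (1.59 ± 0.0997) was the lowest of all 49, below GINS1 (8.31 ± 1.66) and GINS2 (8.70 ± 1.67). Of the 49, 11 have pseudogenes named after them in GENCODE 44, among them RFC3, RRM2, PCNA and DBF4, and 14 overlap a named gene on the opposite strand, among them GINS1 (NINL) and TYMS (ENOSF1 and TYMSOS). How such reads were counted is not given in the sources used here, so these levels are less certain.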

How the data were processed

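Poly(A) RNA of the 12 pools was sequenced, and per the labels reads were aligned to hg38 with STAR and counted with featureCounts. The authors also removed duplicates with RmDup and deposited raw counts per gene symbol. Whether counting used strand is not given in the sources used here. Counts were analysed as deposited. After TMM scaling, edgeR 4.0.16 in R 4.3.3 was used for quasi-likelihood F tests (glmQLFit, robust and legacy) of genes that reached 1 CPM in 3 or more libraries, with Benjamini-Hochberg adjustment (threshold 0.05). Each line was fitted alone, and comparisons between lines used 1 fit of 12 libraries. SEs were derived from the log2 fold change and F. Lengths, GC content and coordinates came from GENCODE 44 (25763 of 28278 symbols matched, 91.1%), and the length and GC trend was removed with a spline of 5 degrees of freedom. DESeq2 1.42.0, RLE scaling, no low-count filter, a plate position block and leaving out each pool were alternatives. Scripts were tested on simulated data. Members and lists were chosen with earlier results of these data known. Values per pool are given for genes past the threshold in any comparison and for the gene with the smallest p of each role in each line. Of deposited counts from 1 to 4, 78.9% were even, and of those from 203 upwards, the range of the 49 genes, 53.8%, and the part of this in any test was not examined. Floors cover counting error only.

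Pools of the same position could pair control with HCQ-evolved plates. After group means were removed, same-position pools correlated across genes at 0.54 (L), 0.26 (M) and 0.23 (R) in CCL218 and at 0.42, -0.69 and -0.50 in OVCAR3. In CCL218, the M control pool correlated best with the R pool of HCQ-evolved cells. The main fits of both lines were unpaired, and plate position as a block was an alternative setting.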

Additional observations from a re-analysis of the deposited data

Results flagged for a closer look

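Changes that differed between the lines were sought by an interaction in 1 edgeR fit of 12 libraries (CCL218 minus OVCAR3, log2). Among the 49 replication genes, RFC3 (-1.50, adjusted p = 0.0121) and POLA2 (-0.91, adjusted p = 0.0397) passed. Among 26 tested G1/S control genes, CDKN1A (2.56, adjusted p = 0.000539) and CCND1 (1.28, adjusted p = 0.0181) passed. None of the 46 further replication genes or 12 genes of G2 and mitosis passed. Of all 12613 genes tested, 87 passed with a higher change in CCL218 and 23 with a lower one. RFC3 passed in 16 of 18 alternative settings and POLA2 in 6. With plate position as a block, neither RFC3 nor POLA2 passed. RFC3 and CDKN1A had opposite signs in the lines, and the change of POLA2 and CCND1 in CCL218 was near 0 beside its change in OVCAR3. Groups of 3 pools were not tested for outlying pools.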

How the results depend on the processing

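In OVCAR3, 3 of 49 genes passed, and other settings called 15 (all 12 libraries in 1 fit), 5 (no low-count filter), 17 (DESeq2), 18 (length and GC trend removed) and 9 (trend removed with the replicate block). Over the whole table, 79 genes passed as higher in the main fit, and 558, 243, 542, 564 and 206 in these settings in turn. Without the filter 21434 genes were tested, against 12204 in the main fit. With pools left out 1 at a time the count was 0 to 9 (0 to 233 of all genes as higher), and the median log2 fold change 0.48 to 0.60. With the replicate block 0 passed in OVCAR3 (17 of all genes as higher), where positions did not pair the pools. In CCL218, 0 passed, and other settings called 1 (no filter), 2 (DESeq2), 2 (replicate block), 4 (trend removed), 3 (trend removed with block) and 0 to 6 (pools left out, median -0.034 to 0.14). All genes passing as higher numbered 468, and 586, 1104, 957, 1255, 1176 and 72 to 1646 in the same order. As lower, 30 to 1401 of all genes passed with pools left out. For the difference between the lines 2 passed, and other settings called 1 (no filter), 8 (DESeq2), 0 (replicate block), 10 (trend removed) and 0 to 4 (pools left out). All genes passing in this direction (lower in CCL218) numbered 23, and 23, 157, 1, 155 and 3 to 49 in turn. Between controls 1 passed, and other settings called 0 (no filter), 3 (DESeq2), 3 (trend removed) and 0 to 4 (pools left out). All genes passing as higher in CCL218 numbered 170, and 177, 374, 283 and 74 to 280 in turn. Between HCQ-evolved pools 11 passed, and other settings called 7 (no filter), 19 (DESeq2) and 5 to 21 (pools left out, median -0.31 to -0.20). All genes passing as lower in CCL218 numbered 807, and 737, 1385 and 342 to 1866 in turn.

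In CCL218 the sign of genes near 0 turned. With the trend removed, DBF4 was at -0.047 (-0.046 with the block) and TK1 at 0.16 (0.16 with the block). With pools left out, MCM8 ranged from -0.12 to 0.28, DBF4 from -0.035 to 0.21, CDC45 from -0.045 to 0.11, RPA1 from -0.064 to 0.27, RRM1 from -0.15 to 0.22 and TK1 from -0.21 to 0.21. None of these 6 genes passed in CCL218 under any setting. The cause of these shifts was not tested. RLE scaling changed no count of calls beyond 1.5 times. Of the values of single named genes, 645 kept their direction and side of the threshold, 65 newly passed, 70 no longer passed and 12 changed sign. The part of depth and of the number of pools in these counts was not tested.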
